A study of Drosophila melanogaster with 6 samples.

Results

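NAP-1 knockdown was compared with control knockdown in S2 cells, an embryo-derived Drosophila melanogaster line that resembles phagocytic blood cells. The comparison took the 2 samples titled as NAP-1 knockdown and the 2 titled as control knockdown, 4 of the 6 samples profiled by messenger RNA sequencing. The other 2 samples, a CBP knockdown, entered the statistical model to help estimate the spread and are quoted only where a NAP-1 result touches them. All groups were the same line in serum-supplemented Schneider's medium and had all been through a knockdown procedure. The labels give neither the reagent used for any knockdown, nor the target of the control knockdown, nor its duration. Nor is it stated that the samples of 1 group came from separate cultures. The p-values therefore reflect the scatter among the 6 libraries, and that scatter may be technical. Values were followed in 4055 genes, taken as the sums of the mapped table columns that carry 1 gene symbol, with a mean of at least 1 RPKM (reads per kilobase of transcript, scaled to the size of the library) over the 6 samples. Among the columns read, CG8547 at a mean of 1.0001 RPKM lay just inside that minimum and CG17159 at 0.6176 RPKM just outside it.

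NAP-1, encoded by Nap1, is a histone chaperone. It binds histones in solution, shields their charge, delivers them to DNA as nucleosomes form and can also take them off. The series' title concerns NAP-1 and acetylation of the linker histone H1, and CBP, encoded by nej, is a histone acetyltransferase. Nucleosome assembly also uses other chaperones, the remodelling enzyme ISWI with partners such as Acf1 and the small CHRAC subunits, and enzymes that add or remove histone acetyl groups. The question of the comparison was which transcripts differ when Nap1 transcript is reduced.

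The deposited table lists 4838376 and 5188013 alignments for the control libraries and 5253846 and 4162019 for the NAP-1 knockdown libraries. If values were scaled to these totals, 1 alignment on a transcript of 1 kb was worth 0.19 to 0.24 RPKM, so a gene of that length at 1 RPKM rested on few reads. In the controls 3838 and 3868 genes reached 1 RPKM, against 3717 and 3754 after NAP-1 knockdown. The 20 most abundant genes held 23% and 27.28% of the summed RPKM in the controls and 30.92% and 28.83% after NAP-1 knockdown. Of 12 markers of S2 cells or plasmatocytes, 5 were analysed (crq, Cg25C, vkg, Ppn and Glt), and they summed to 320.3 and 306 RPKM in the controls and 215 and 292 RPKM after NAP-1 knockdown. The neuronal marker elav was at 3.26 and 0.749 RPKM in the controls and at 0.356 and 1.30 RPKM after NAP-1 knockdown. The germ-line marker aub stood at 1.31 and 2.67 against 3.87 and 2.10 RPKM, and markers of crystal cells, lamellocytes, glia, muscle, fat body and gut were not analysed here. In bulk RNA, fewer cells of a type and less RNA per cell cannot be told apart.

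The targeted gene was the first check. Nap1, a protein-coding gene on chromosome arm 2R, summed to 219.6 and 243 RPKM in the controls and to 20.6 and 26.5 RPKM in the NAP-1 knockdown libraries. Both knockdown libraries lay far below both controls. On the log2(RPKM + 1) scale, which is used for every log2 difference here and understates changes of low genes, Nap1 fell by 3.25 (SE 0.28, limma, adjusted p = 0.0287). Of its 2 listed mRNAs, the major one was at 215 and 234 RPKM in the controls and at 20.2 and 26 RPKM after knockdown. The minor one stood at 4.15 and 8.85 RPKM against 0.389 and 0.501 RPKM, so both mRNAs were lower in both knockdown libraries. Nap1 transcript remaining in replicate 1 and replicate 2 differed by 0.35 on the log2 scale, a small gap beside the differences between these libraries described further on. The call of Nap1 did not survive leaving out any 1 of the 6 libraries (adjusted p from 0.0725 to 0.400), while its log2 difference stayed between -3.43 and -3.08.

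Apart from Nap1, no gene passed the test. Of 4055 genes, 0 were higher (0%) and 1 was lower (0.0247%) after NAP-1 knockdown at an adjusted p under 0.05 (limma, Benjamini-Hochberg). The unadjusted p lay under 0.05 for 40 genes with higher values (0.986%) and for 101 with lower values (2.49%). Counting without a test, 329 genes (8.11%) had both NAP-1 knockdown libraries above both controls by any amount and 1085 (26.8%) had both below. The excess of lower genes depended on how the libraries were scaled. It went to 577 above and 710 below with median-of-ratios scaling, to 664 and 594 with quantile normalization, and to 655 and 522 after a fitted length trend was removed. The unadjusted counts went in the same order to 51 higher and 73 lower, to 85 and 71, and to 49 and 62. The median log2 difference over all genes was -0.13 as deposited, -0.04 with median-of-ratios scaling, 0.01 with quantile normalization and 0.03 with the length trend removed, so medians of gene lists are given relative to it. Separation by at least 2-fold, which here always means 1 unit of log2(RPKM + 1), was rarer: 13 genes (0.321%) had both knockdown libraries that far above both controls and 10 genes (0.247%) that far below. With a pseudocount of 0.1 RPKM the balance turned, to 20 above and 28 below. With 1 of the 4 libraries left out there were 26 to 61 above and 28 to 161 below, fewer libraries then having to separate.

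The genes most clearly separated upward were all low in the controls, and none passed the test (limma, adjusted p from 0.849 to 0.978 for the 12 named here). All 13 genes separated by 2-fold or more had both controls under 3 RPKM. Acyp2, Herp and CR44976 were under 1 RPKM in every control and CBP knockdown library. They reached the minimum mean only through the NAP-1 knockdown libraries, so low controls beside higher knockdown values were built into their inclusion. CG11329, which encodes the Nse1 subunit of the SMC5/6 chromosome-maintenance complex, was at 0.140 and 0.129 RPKM in the controls and at 4.37 and 4.68 RPKM after NAP-1 knockdown. Acyp2, an acylphosphatase gene, stood at 0.109 and 0.104 RPKM against 2.59 and 3.27 RPKM. In both genes, chosen for the gap between groups, the replicates of a group were close together. Their log2 differences were 2.28 (SE 0.43) for CG11329 and 1.82 (SE 0.31) for Acyp2. Lsm10 encodes a subunit of the U7 particle that trims the 3′ ends of replication-dependent histone messages. Its controls were at 1.87 and 1.38 RPKM and its knockdown libraries at 5.48 and 5.57 RPKM, a log2 difference of 1.32 (SE 0.36). Arp10, an actin-related subunit of the dynein activator dynactin, stood at 1.34 and 2.49 RPKM against 7.81 and 6.89 RPKM. Herp, a component of endoplasmic-reticulum-associated degradation, stood at 0.501 and 0.897 RPKM against 3.03 and 3.24 RPKM. The groups of these 3 genes did not overlap, as the choice by widest gap required, and the replicates after NAP-1 knockdown were close.

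CG15766, which encodes an agmatine N-acetyltransferase, was at 1.06 and 0.588 RPKM in the controls and at 3.89 and 3.41 RPKM after NAP-1 knockdown. Qtzl, a young chimeric gene that shares sequence with its parent genes, stood at 0.798 and 1.48 RPKM against 5.86 and 8.21 RPKM. Because reads could be divided uncertainly between Qtzl and its parents, its values are uncertain. CG3793 stood at 0.389 and 0.341 RPKM against 3.41 and 6.88 RPKM, and CG14818 at 2.49e-05 and 1.55e-05 RPKM against 1.92 and 1.20 RPKM. CG43236, which encodes a metchnikowin-like peptide, was listed at 0 in 1 control and at 0.943 RPKM in the other, against 3.12 and 3.91 RPKM. These genes did not overlap between groups either, which again followed from their choice, although the knockdown replicates of CG3793 were farther apart. CR44976 was at 0.0129 and 0.0213 RPKM in the controls and at 12 and 2.18 RPKM after knockdown. It is annotated as antisense, and although the kit keeps strand, whether the counting used it is not stated, so its reads and those of its partner cannot be told apart. CG43210, at 0.00270 and 0.159 RPKM against 2.29 and 9.05 RPKM, has a table column with the same values as one of CG43194. Many of these genes were also above both controls in both CBP knockdown libraries, CG11329 for example at 6.55 and 2.34 RPKM. The others were CG3793, CG43210, Qtzl, Arp10, CG14818, CG15766 and CG43236. Acyp2, Lsm10, Herp and CR44976 were not.

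The genes most clearly separated downward, after Nap1, included a subunit of a nucleosome-remodelling complex. None of them passed the test (limma, adjusted p from 0.849 to 0.978). Chrac-16, a histone-fold subunit of the ISWI complex CHRAC, was at 4.14 and 4.07 RPKM in the controls and at 0.331 and 0.282 RPKM after NAP-1 knockdown. Its replicates were close in both groups, with a log2 difference of -1.97 (SE 0.48). Tbc1d15-17, a GTPase-activating protein gene for Rab proteins, stood at 5.52 and 6.87 RPKM against 0.782 and 0.743 RPKM, a log2 difference of -2.02 (SE 0.38). CycG, which encodes cyclin G, stood at 6.88 and 8.69 RPKM against 2.19 and 1.64 RPKM. Neos stood at 12.5 and 10.7 RPKM against 2.61 and 4.61 RPKM. All of these had both knockdown libraries below both controls, as the choice by widest gap required.

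Among the other separated genes, msps encodes a microtubule polymerase and was at 16.4 and 10.6 RPKM in the controls and at 4.05 and 4.52 RPKM after NAP-1 knockdown. Its transcripts are long, and its log2 difference of -1.43 became -0.91 with the length trend removed. nudE, which encodes a regulator of the motor dynein, stood at 12.6 and 2.32 RPKM against 0.576 and 0.0553 RPKM. The 2 controls of nudE were farther apart from each other than replicate 1 of the knockdown was from the lower control. CG31955 stood at 7.43 and 5.50 RPKM against 0.888 and 1.07 RPKM, CG2225 at 4.79 and 2.38 RPKM against 0.304 and 0.474 RPKM, and CG42359 at 2.46 and 2.13 RPKM against 0.333 and 0.0934 RPKM. The value of CG31955 depended on which of its columns were summed: its log2 difference of -1.91 became -0.56 when the minimum was applied to single columns. Just short of 2-fold separation on the log2(RPKM + 1) scale, though not in RPKM itself, were CG17494, known as Slmap, and HP5, which encodes a heterochromatin protein. CG17494 stood at 15.2 and 4.99 RPKM against 2.05 and 1.26 RPKM, and HP5 at 7.82 and 5.85 RPKM against 1.90 and 2.63 RPKM. In both CBP knockdown libraries, msps, nudE, CG31955, CG2225, CG17494 and HP5 were also below both controls. There msps stood at 0.248 and 0.0588 RPKM, lower than after NAP-1 knockdown. CG42359, at 3.58 and 1.89 RPKM in the CBP knockdown libraries, was not below both controls in both.

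**Figure D1:**
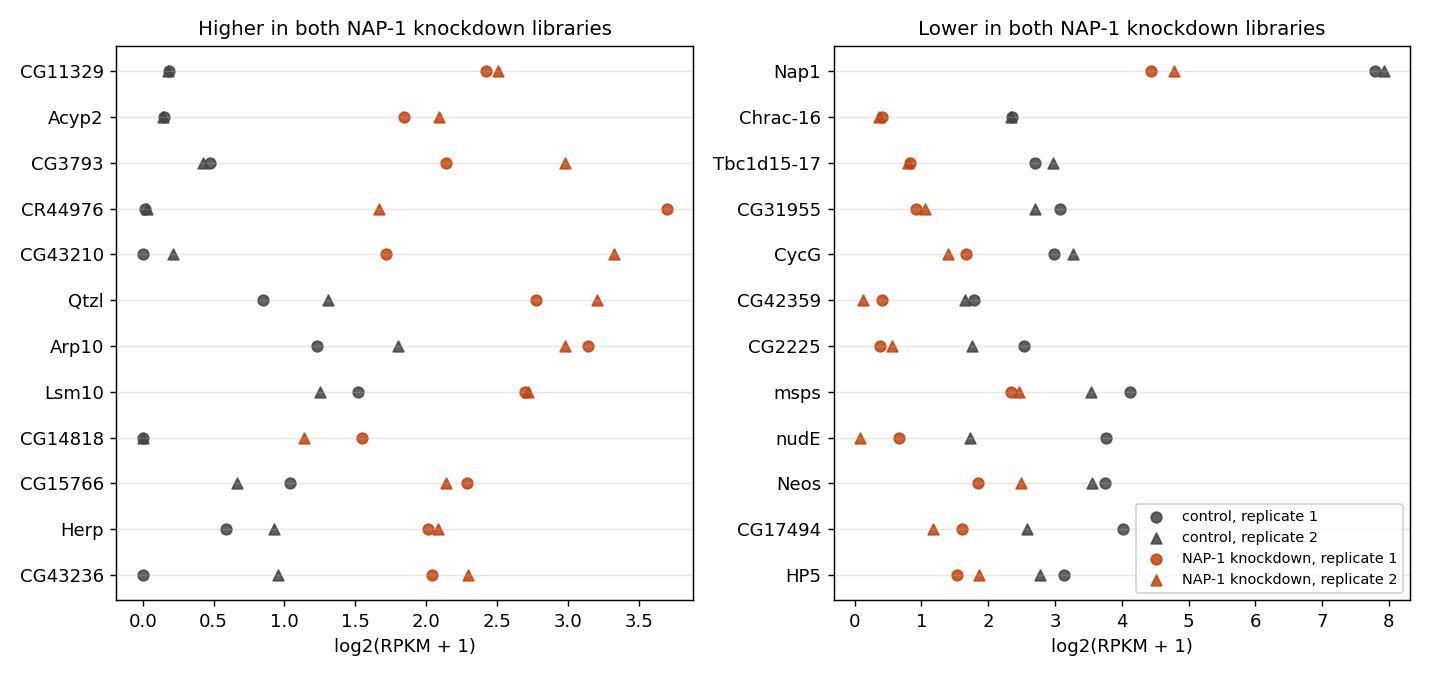
Level of each gene in each library as log2(RPKM + 1), for the 12 genes with the widest gap upward (left) and downward (right) between both NAP-1 knockdown libraries (orange) and both controls (grey), with circles for replicate 1 and triangles for replicate 2. Nap1 has the widest gap, at 219.6 and 243 RPKM against 20.6 and 26.5 RPKM, and the genes on the left start from controls under 3 RPKM.

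The 2 NAP-1 knockdown libraries disagreed with each other more than the 2 controls did. They differed by at least 2-fold in 15.5% of genes, 294 higher and 334 lower in replicate 1, with an SD of 0.84 over genes. The controls differed by as much in 7.79% of genes, with an SD of 0.57. Set against the mean of the controls, which both comparisons share, replicate 1 was at least 2-fold away in 11.1% of genes, 346 of them lower, and replicate 2 in 7.74% of genes, 186 of them lower. As a description across genes, which are not independent replicates, Pearson's r between log2 levels was 0.850 between the NAP-1 knockdown libraries and 0.924 between the controls. Replicate 2 of the knockdown had an r of 0.944 with control replicate 2 and 0.872 with control replicate 1. Replicate 1 had 0.877 and 0.896 with controls 1 and 2, and 0.900 and 0.841 with the CBP knockdown libraries, where replicate 2 had 0.791 and 0.700. Each knockdown library was thus nearer to both controls than to the other knockdown library. Replicate 1 was about as near to CBP knockdown replicate 1 as to control replicate 2. Every average over the 2 knockdown libraries here joins libraries that stand apart in this way.

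Genes with the widest gap between the NAP-1 knockdown libraries were taken from the 3739 whose controls differed by less than 1 on log2(RPKM + 1), a limit that admits low genes such as TotM whose controls are many-fold apart in RPKM. TotM, which encodes a secreted stress peptide of the Turandot family, was at 0.571 and 0.00410 RPKM in the controls, at 69.3 RPKM in knockdown replicate 1 and at 0.00153 RPKM in replicate 2. In the CBP knockdown libraries TotM stood at 59.4 and 122 RPKM, so replicate 1 resembled those and replicate 2 the controls. CG6650 was at 11.7 and 9.52 RPKM in the controls, at 43.1 RPKM in replicate 1 and at 1.81 RPKM in replicate 2. Its 2 knockdown libraries lay on opposite sides of the controls, and their mean hid both. Vhl, a substrate receptor of an E3 ubiquitin ligase, was at 19 and 13.5 RPKM in the controls, 13.4 RPKM in replicate 1 and 0.907 RPKM in replicate 2. The adducin gene hts was at 7.40 and 3.27 RPKM in the controls, 6.28 RPKM in replicate 1 and 3.94e-08 RPKM in replicate 2. For both of these genes replicate 2 was the library that stood apart.

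In the other direction, Rcd4, a centriole assembly gene, was at 22.8 and 26.9 RPKM in the controls, at 1.08 RPKM in replicate 1 and at 27.9 RPKM in replicate 2. CG3446, a subunit of respiratory complex I, was at 2.49 and 4.62 RPKM in the controls, 0.000196 RPKM in replicate 1 and 10.5 RPKM in replicate 2. Replicate 1 alone was low for Rcd4, and the knockdown libraries lay on opposite sides of the controls for CG3446. The transcript of lolal, whose small BTB-domain protein partners the GAGA factor, was at 48.1 and 24.6 RPKM in the controls, 1.97 RPKM in replicate 1 and 19.2 RPKM in replicate 2. Both knockdown libraries of lolal were below both controls, replicate 1 by far more. The nucleoside transporter gene Ent2 was at 3.14 and 2.55 RPKM in the controls, 0.05 RPKM in replicate 1 and 8.94 RPKM in replicate 2. Of the 16 genes with the widest gaps, 8 in each direction, 5 are annotated as antisense RNAs, against 59 of all 4055 genes (1.45%). These were CR45396 and CR45175, high in replicate 1, and CR43787, CR44049 and CR45371, low in replicate 1. The widest of them, CR45396, stood at 41.3 RPKM in replicate 1 and 3.40e-05 RPKM in replicate 2. The share of antisense RNAs among the 3739 genes drawn from was not counted. As with CR44976, reads of these antisense RNAs and of their partners cannot be told apart. The remaining genes, CG16888, CG8145 and CG13994, had log2 differences between the libraries of 3.32, 2.68 and -2.89.

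**Figure D2:**
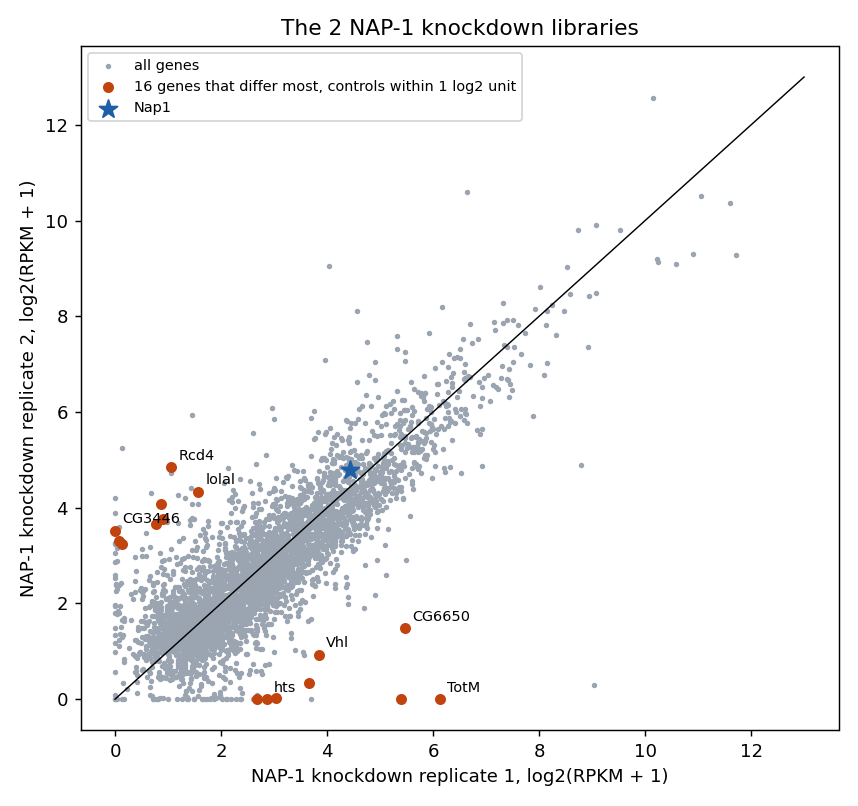
Each of the 4055 genes by its log2(RPKM + 1) in NAP-1 knockdown replicate 1 (horizontal) and replicate 2 (vertical), with the line of equal levels. The 16 genes with the widest gaps (orange) include TotM at 69.3 against 0.00153 RPKM and Rcd4 at 1.08 against 27.9 RPKM, while Nap1 (star) lies near the line at 20.6 and 26.5 RPKM.

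Histone genes varied more between the libraries of a group than between the groups. Of 4 analysed, 0 had an unadjusted p under 0.05. His3.3A and His3.3B encode the replacement histone H3.3, and His4r encodes a polyadenylated histone H4. His3.3A was at 41 and 139 RPKM in the controls and at 26 and 176 RPKM after NAP-1 knockdown. His3.3B stood at 44.7 and 65.8 RPKM against 22.8 and 97.6 RPKM, and His4r at 21.3 and 57.3 RPKM against 28.8 and 100.1 RPKM. In all 3 genes replicate 2 was the higher library of both groups and the groups overlapped. The labels do not say that equal replicate numbers share a culture, day or batch. The ribosomal protein gene RpL21 had the same order, at 1471 and 4636 RPKM in the controls and 1133 and 6042 RPKM after knockdown. RpL38 did not, at 1267 and 1084 RPKM in the controls, 3362 RPKM in replicate 1 and 622 RPKM in replicate 2. RpL41 had 1191 and 1331 RPKM in the controls against 3089.7 and 1314 RPKM, RpL5 had 1621 and 1550.3 against 2114 and 1470.2 RPKM, and the noncoding RNA CR34335 had 888 and 1093 against 1924 and 626 RPKM. These 5 were the most abundant genes, and in the last 4 of them replicate 1 of the knockdown was the highest library of the 4. Whether reads of ribosomal protein genes were divided with similar sequences elsewhere is not stated, so their values can be uncertain. RpL26 stood at 30.1 RPKM in control replicate 1 and between 0.0103 and 0.0109 RPKM in the other 3 libraries.

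Differences from control varied with transcript length in both knockdown libraries, and also between the controls. In 5 equal bins of 805 genes, from 116 to 971 nt in the shortest to 2955 to 48944 nt in the longest, the median log2 difference of replicate 1 from the controls was 0.14, 0.02, -0.04, -0.13 and -0.41. For replicate 2 it was 0.04, -0.12, -0.17, -0.22 and -0.27. Control replicate 2 minus control replicate 1 gave 0.12, 0.06, 0.00, -0.05 and -0.18. The direction of that order depends on which control is subtracted from the other, so only its size can be compared. Across 4025 genes, as a description, Spearman's rho with length was -0.32 for replicate 1 and -0.24 for replicate 2. It was -0.26 for control replicate 2 minus replicate 1, a sign that would turn with the order of subtraction. The part of length in the lower values of long genes was not tested beyond removing the fitted trend. By level, the median log2 difference over both libraries ran from -0.24 in the least abundant bin of 811 genes to 0.01 in the most abundant. By chromosome arm it lay between -0.16 and -0.09 for 2L, 2R, 3L, 3R and X. The 21 genes of chromosome 4, the small and largely heterochromatic chromosome, had a median of -0.56, with -0.63 in replicate 1 and -0.64 in replicate 2. For control replicate 2 minus replicate 1 they had a median of -0.30. Of the 21, 7 were in the longest bin, which held 805 of the 4025 genes. Their median transcript length was 1498 nt, against 1623 to 1955 nt on the other arms named. The part of length in the value of chromosome 4 was not tested.

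**Figure D3:**
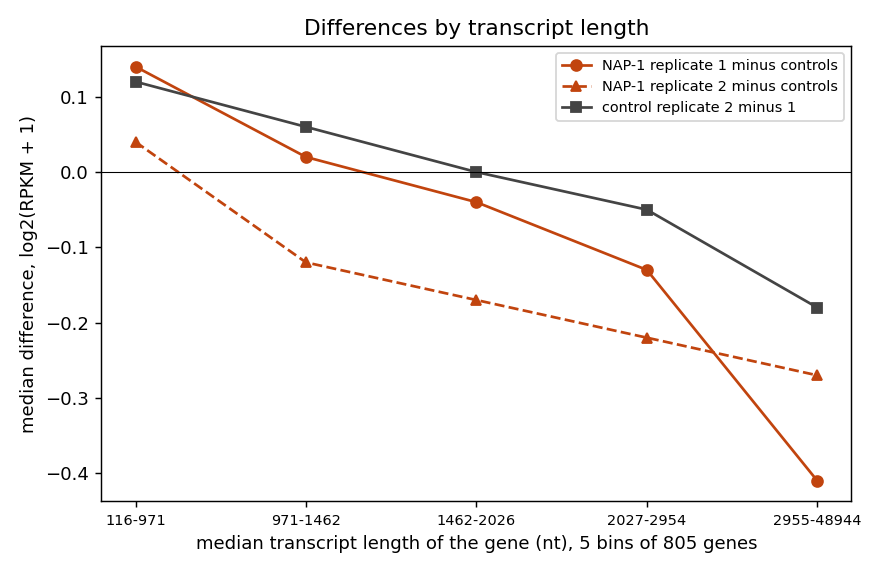
Median difference in log2(RPKM + 1) for 5 bins of 805 genes ordered by transcript length in nucleotides, for each NAP-1 knockdown library minus the mean of the controls (orange) and for control replicate 2 minus replicate 1 (grey). The lines run from 0.14, 0.04 and 0.12 in the shortest bin to -0.41, -0.27 and -0.18 in the longest.

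Among other histone chaperones and chromatin assembly factors, Nap1 was the member that passed the test, and it was the only member of the NAP family analysed. Of 14 chaperone and assembly genes with Nap1 included, 0 were higher and 2 lower at an unadjusted p under 0.05. The shares over all genes were 0.986% higher and 2.49% lower. Of the 2, 1 was the targeted gene itself. The median of the list lay 0.09 below that of all genes. Dek, a chromatin protein with chaperone activity, was the other, at 5.2 and 2.08 RPKM in the controls and 0.650 and 1.46 RPKM after NAP-1 knockdown. The chaperone gene asf1, for histones H3 and H4, stood at 53.1 and 64.5 RPKM against 60.9 and 52.8 RPKM. Hira, which deposits H3.3, stood at 5.28 and 5.43 RPKM against 5.58 and 4.41 RPKM. Both genes overlapped between groups. Of the chromatin assembly factor 1 subunits, the gene of the largest had 10.1 and 6.12 RPKM against 2.86 and 5.81 RPKM, Caf1-105 had 4.31 and 3.40 against 2.85 and 4.49 RPKM, and Caf1 had 20.2 and 21 against 18.9 and 16.8 RPKM. The remodelling ATPase gene Iswi stood at 12.7 and 10.7 RPKM against 7.07 and 9.44 RPKM, and its partner Acf1 at 5.67 and 3.50 RPKM against 2.24 and 2.42 RPKM. Both lay below both controls, by less than 2-fold between the nearest libraries. The FK506-binding chaperone gene FK506-bp1 stood at 63.8 and 72.2 against 47.6 and 68.0 RPKM, and Mi-2, a remodelling ATPase gene, at 17.7 and 26.1 against 23.9 and 25.6 RPKM. CG7911 stood at 88.9 and 85.7 against 72.2 and 74.3 RPKM, CG8223 at 10.6 and 11.5 against 7.87 and 13.5 RPKM, and the helicase gene Mcm2 at 9.94 and 10.0 against 13.2 and 6.70 RPKM. Of these 5 genes only CG7911 had both knockdown libraries below both controls.

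Histone acetyltransferase genes and their partners had 13 members analysed, of which 0 were higher and 2 lower at an unadjusted p under 0.05 (0.986% and 2.49% over all genes), and 0 passed the adjustment. In 7 of the 13 both knockdown libraries lay below both controls, against 26.8% of all genes as deposited, a share that depended on scaling. Their median lay 0.23 below that of all genes, and 0.01 below it with the length trend removed. Tip60, the catalytic subunit of an acetyltransferase complex for H4 and H2A variants, was at 7.31 and 7.49 RPKM in the controls and at 3.87 and 3.90 RPKM after NAP-1 knockdown. Its replicates nearly coincided, with a log2 difference of -0.78 (SE 0.28, limma, adjusted p = 0.978). The acetyltransferase gene chm stood at 3.36 and 2.34 RPKM against 0.615 and 1.07 RPKM. The transcript of nej stood at 3.25 and 2.47 RPKM against 1.26 and 2.41 RPKM, so CBP message in replicate 2 lay close to the lower control. Gcn5 stood at 11 and 10.8 RPKM against 10.3 and 6.53 RPKM, and its adaptor gene Ada2b at 4.81 and 3.89 RPKM against 3.70 and 3.20 RPKM. Nipped-A, the scaffold of both the SAGA and Tip60 complexes, stood at 11.1 and 9.96 RPKM against 5.79 and 10.9 RPKM. Nipped-A overlapped between groups, as did Ada2a, Atac2, dik, Elp3 and Ing3, whereas Brd8, at 7.48 and 7.87 against 6.59 and 6.25 RPKM, and CG7593, at 35.3 and 25.1 against 24.7 and 19.1 RPKM, did not. Of 5 deacetylase and corepressor genes, 0 had an unadjusted p under 0.05. CoRest stood at 37.5 and 31.3 against 27.2 and 25.9 RPKM, Sin3A at 5.44 and 2.18 against 1.61 and 1.75 RPKM, and MTA1-like at 18.6 and 17.6 against 7.81 and 17.3 RPKM. These 3 of 5 lay below both controls in both libraries, against 1085 of 4055 genes (26.8%) as deposited, a number that was 710 or 594 with the other scalings. HDAC6 and Smr overlapped.

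Of 16 nucleosome-remodelling genes, 0 were higher and 3 lower at an unadjusted p under 0.05, namely Chrac-16, tou and rept, against 0.986% and 2.49% over all genes. The list's median lay 0.15 below that of all genes. Acf1, Iswi and Mi-2 were counted both in this list and in that of chaperone and assembly genes. The gene tou, which encodes a relative of Acf1, stood at 9.59 and 5.34 RPKM against 3.08 and 3.16 RPKM, and its log2 difference went from -0.99 to -0.41 with the length trend removed. The ATPase gene rept stood at 13.1 and 15.1 RPKM against 10.3 and 2.68 RPKM. With the length trend removed the remodelling list lay 0.02 below all genes. Jarid2, a partner of the Polycomb repressive complex that methylates H3, stood at 3.97 and 2.65 RPKM against 1.08 and 1.23 RPKM, a log2 difference of -0.99 that became -0.44 with the length trend removed. Of the HMG-box genes listed with the linker histone, Dsp1, a DNA-bending corepressor gene, was at 19.4 and 9.07 RPKM in the controls and at 6.08 and 0.638 RPKM after knockdown. Hmg-2 stood at 13.8 and 16.3 against 15.9 and 10.6 RPKM, and HmgZ at 0.752 and 1.64 against 1.59 and 0.468 RPKM. Dsp1 lay below both controls, and the other 2 overlapped. The linker histone genes themselves were not analysed here.

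Outside the chromatin lists, no member of any list passed the adjustment. Oxidative phosphorylation, with 52 members, had 2 higher and 1 lower at an unadjusted p under 0.05, where all genes had 0.986% and 2.49%, and a median 0.27 above that of all genes. With the length trend removed it lay 0.09 above. CG7630, a cytochrome c oxidase subunit gene, was at 22.9 and 28.4 RPKM in the controls and at 45.4 and 48.8 RPKM after NAP-1 knockdown. Ucrh, a subunit of complex III, stood at 37.6 and 41.2 RPKM against 98.1 and 53.9 RPKM, and CG7580, another complex III subunit, at 86.4 and 57.2 RPKM against 31.5 and 45.0 RPKM. The 25 cytosolic ribosomal protein genes analysed, a part of that family, lay 0.62 above all genes in replicate 1. In replicate 2 they lay 0.08 above, and 0 members were past the unadjusted threshold. The 10 antimicrobial peptide genes, effectors of humoral immunity, lay 0.63 above all genes in replicate 1 and 0.20 above in replicate 2, and 0.01 below with the length trend removed. Of these, CecA1 stood at 16.2 and 19.7 RPKM against 27.9 and 20.4 RPKM and CecA2 at 4.91 and 5.45 RPKM against 8.55 and 6.2 RPKM, and the cecropin genes are near-identical, so their values are uncertain.

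The 6 ecdysone and insulin pathway genes lay 0.69 below all genes in replicate 1 and 0.17 below in replicate 2, with 0 higher and 1 lower at an unadjusted p under 0.05 (all genes, 0.986% and 2.49%). That gene was usp, a subunit of the ecdysone receptor, at 2.71 and 2.28 RPKM in the controls and 0.640 and 1.21 RPKM after knockdown. ImpL2, a secreted antagonist of insulin signalling, stood at 376 and 232 RPKM against 94.1 and 182 RPKM, with both knockdown libraries below both controls. The 18 microtubule and kinesin genes had 0 higher and 2 lower, msps and nudE, beside the same shares over all genes, and their median went from 0.22 to 0.02 below all genes with the length trend removed. The 9 JNK and immediate early genes lay 0.53 below all genes in replicate 1 and 0.12 below in replicate 2, with 0 past the unadjusted threshold in either direction. The ETS transcription factor gene Ets21C was among the nearest to it, at 4.81 and 3.99 RPKM against 1.12 and 3.61 RPKM. Among small RNA genes, loqs, a double-stranded RNA-binding partner of Dicer enzymes, was the 1 of 11 with an unadjusted p under 0.05 (all genes, 0.986% higher), at 4.4 and 3.88 RPKM against 8.38 and 9.20 RPKM. The list as a whole lay 0.34 below all genes, and 0.18 below with the length trend removed, so loqs was opposite to its list.

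Members of other lists also had an unadjusted p under 0.05 without passing the adjustment. Higher were 1 of 16 autophagy and 1 of 10 oxidative stress genes, beside 0.986% of all genes. Lower were 1 of 17 replication, 1 of 11 DNA repair and 1 of 9 extracellular matrix genes, beside 2.49% of all genes. So were 2 of 18 translation genes and 2 of 10 cyclin genes, CycG and CycT. Atg12, a ubiquitin-like autophagy protein gene, was at 2.05 and 2.85 RPKM in the controls and at 5.64 and 5.10 RPKM after NAP-1 knockdown. Gclm, the modifier subunit of the enzyme that starts glutathione synthesis, stood at 0.00139 and 0.640 RPKM against 2.53 and 1.59 RPKM. Gclm reached the minimum mean only through the NAP-1 knockdown libraries, so its direction was partly set by its inclusion. The other genes of this kind were lower. DNApol-alpha180, the catalytic subunit of DNA polymerase alpha, stood at 5.00 and 2.53 RPKM against 1.40 and 1.26 RPKM, and its log2 difference went from -0.98 to -0.58 with the length trend removed. The laminin subunit gene LanA stood at 57.5 and 16.2 RPKM against 9.76 and 11.7 RPKM, and went from -1.44 to -0.85. The helicase gene hay, of the transcription and repair factor TFIIH, stood at 9.34 and 7.34 RPKM against 5.32 and 1.94 RPKM. CycT, the cyclin of the elongation factor P-TEFb, stood at 6.16 and 2.53 RPKM against 0.429 and 1.81 RPKM. The cap-binding factor gene eIF-4E stood at 7.46 and 5.29 RPKM against 2.85 and 3.14 RPKM, and eIF-4B at 23.3 and 9.48 RPKM against 4.56 and 7.47 RPKM. In each of these genes both knockdown libraries lay outside the range of the controls, as they did above both controls in 8.11% and below both in 26.8% of all genes.

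Several lists held 0 genes past the unadjusted threshold in either direction among the members analysed, and lay within 0.15 of the median of all genes. They were the 35 Mediator and Integrator genes, 0.01 below it, the 25 tRNA synthetase genes, 0.12 above it, the 7 proteasome genes, 0.13 above it, the 20 glutathione S-transferase genes, 0.13 above it, the 15 mitosis genes, 0.11 below it, and the 17 heat shock and cytosolic chaperone genes, 0.09 below it. The heat shock list lay 0.16 above all genes in replicate 1 and 0.22 below in replicate 2, and the synthetase list 0.20 above and 0.06 below. The libraries were also on opposite sides, by less, for Mediator and Integrator (0.02 and -0.06), glutathione S-transferases (0.20 and -0.02) and mitosis (-0.07 and 0.08). The proteasome list was above all genes in both, at 0.23 and 0.15.

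**Figure D4:**
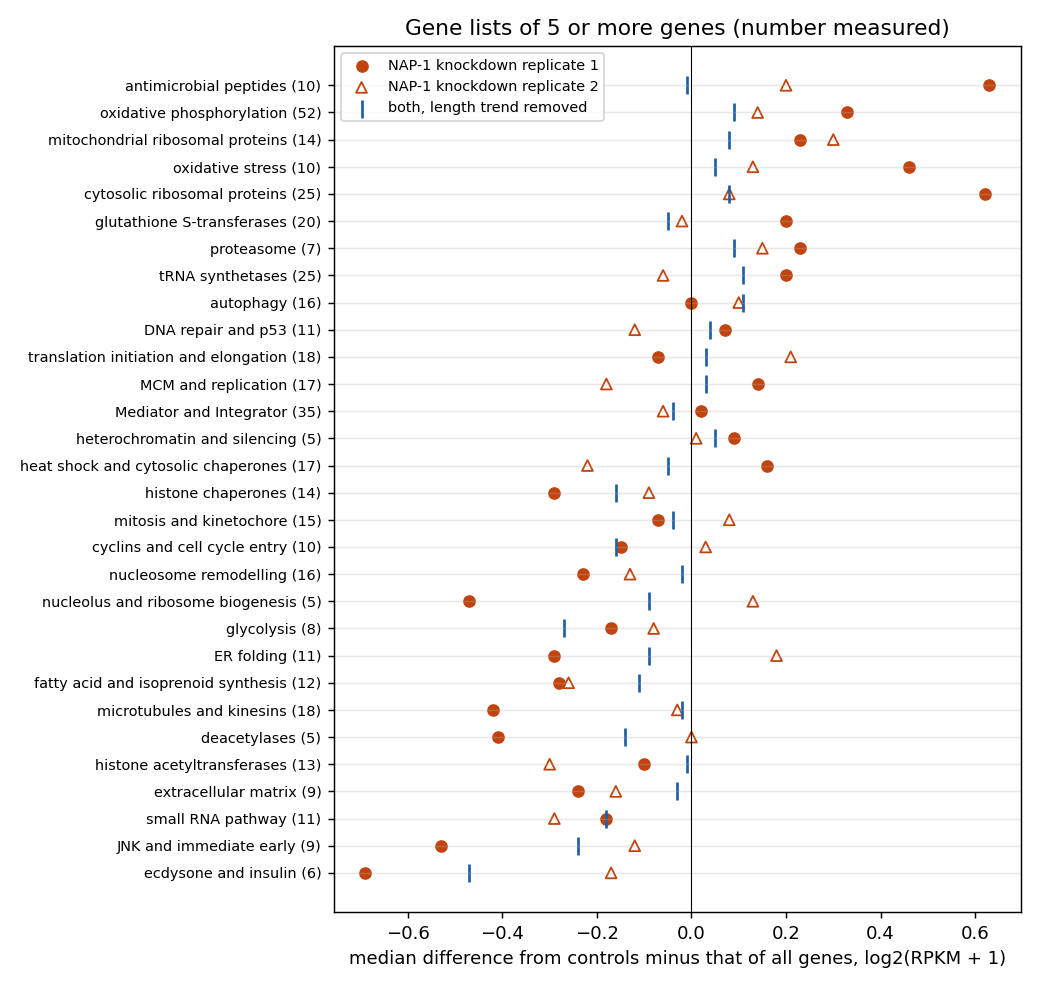
Median difference from the controls, minus that of all genes, in log2(RPKM + 1), for each gene list with 5 or more genes measured (number in brackets), in NAP-1 knockdown replicate 1 (filled circles) and replicate 2 (open triangles), with a bar for both libraries after the length trend was removed. Replicate 1 spans 0.63 for antimicrobial peptides to -0.69 for the ecdysone and insulin list, and replicate 2 lies nearer to 0 in both.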

How the data were processed

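Polyadenylated RNA from S2 cells was sequenced from strand-specific libraries, per the labels' protocols. The authors deposited 1 table with samples in rows, holding RPKM values and the number of alignments, a count, per sample. Per the submitters' processing notes the build is dm3. The aligner, counting program and strand setting are not given in any source used here. Of 16381 value columns, 7156 carry a symbol alone and 9225 a RefSeq mRNA and a symbol. The names that are a symbol alone stop at NLaz in alphabetical order, so the table seems to be cut short. Genes later in that order can be missing, and gene lists can hold only part of a family. Of them 11402 were not used, and the 4979 read were chosen to hold most of the summed RPKM of each gene, so minor columns of a gene can be missing from its sum. They were summed per symbol after dropping 172 that repeated another column, which left 4803 columns for 4055 genes with a mean of at least 1 RPKM. Of these genes, 622 had more than 1 column and 47 share a column with another symbol. The genes 312 and PP2A-B' were left out because of their names. Lengths and chromosome arms came from the BDGP6 annotation for 4025 genes, by name only, and no coordinates are given because that build is not dm3.

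The log2(RPKM + 1) values were fitted with limma (version 3.58.1, R version 4.3.3), with 1 model over all 6 samples, a variance trend and Benjamini-Hochberg adjustment over all genes at 0.05. No count model was fitted, because RPKM is not a count and the lowest values are far below 1 read. Genes were named by rule: Nap1 and the linker histone list, the 12 widest separations of all 4 libraries in each direction, the 8 widest gaps between the knockdown libraries in each direction, for each list the 3 smallest p, all chaperone, acetyltransferase and deacetylase members, and the 5 most abundant genes. Members, lists and rules were chosen with earlier results of these data known, and 5 misplaced list entries were removed after values were seen. Alternatives covered the pseudocount, the minimum, scaling, samples in the fit, replicate block, variance trend, single columns, a loess length trend (span 0.5) and each library left out.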

Additional observations from a re-analysis of the deposited data

How the results depend on the processing

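The log2 difference of Nap1 kept its direction in every alternative run and its call in 5 of 16. The call was lost with median-of-ratios scaling (-3.14, limma, adjusted p = 0.113), 4 samples in the fit (-3.25, adjusted p = 0.303), single columns (-3.24, adjusted p = 0.0607) and the length trend removed (-3.16, adjusted p = 0.0758), each leaving 0 genes lower. With the replicate block Nap1 had -3.25 (adjusted p = 0.131) and 0 genes were lower. The labels name no shared batch for equal replicate numbers, whose deviations correlated at 0.24 between control and NAP-1 knockdown, 0.14 between control and CBP knockdown and -0.24 between NAP-1 and CBP knockdown. Leaving out 1 library gave -3.43 to -3.08 for Nap1 and 0 to 1 genes lower, the 1 being RpL26 without control replicate 2 (-4.94, adjusted p = 0.0263). At an unadjusted p under 0.05, leaving out 1 library gave 25 to 182 genes higher and 36 to 197 lower. Genes separated by 2-fold or more numbered 26 to 61 above and 28 to 161 below when 1 of the 4 libraries was left out, and 597 to 1315 and 1575 to 2177 by any amount, partly because fewer libraries have to separate. A pseudocount of 0.1 RPKM gave 48 genes lower unadjusted and 20 above and 28 below by 2-fold. A mean of at least 5 RPKM gave 14 and 19 unadjusted, 2 and 3 by 2-fold and 191 and 454 by any amount, among 2099 genes. Quantile normalization gave 85 higher unadjusted and 6 below by 2-fold, single columns gave 19 below by 2-fold, and removal of the length trend gave 62 lower unadjusted. By any amount, median-of-ratios scaling gave 577 and 710, quantile normalization 664 and 594, and length removal 655 and 522. These counts by any amount were added after the data were seen. The cause of these changes was not tested. Of list medians, 399 stayed within the spread between the knockdown libraries and 96 moved further, and of other named genes 1 gained a call, RpL26, and 2360 values stayed uncalled. Fits with no minimum and with repeats summed were not run, since those columns were not mapped. Depth limits the genes with low values, since 1 alignment on 1 kb is worth 0.19 to 0.24 RPKM.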
